A study of Mus musculus with 4 samples.

Results

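The genes described here were 10 regulators of the BCL-2 family, Bcl2, Bcl2l1, Mcl1, Bax, Bak1, Bbc3, Pmaip1, Bcl2l11, Bid and Bad. They were found by symbol among the 39186 genes of a table of RNA sequencing, in which each symbol had 1 row, and all 10 passed the filter that left 32428 genes tested. The RNA came from LSK cells, that is lineage-negative, Sca-1 and c-Kit positive cells that hold stem cells and multipotent progenitors, sorted from livers of mid-gestation C57BL/6 mouse embryos. There were 2 Pich-KO and 2 Pich-WT samples. Pich, named Ercc6l in the table, encodes a DNA translocase of mitosis, and the knockout allele, made with TALEN nucleases, carries a small deletion in the second exon in every cell of the embryo. The labels do not say how many embryos gave each sample, whether samples of 1 group came from separate embryos, or the sex of the embryos. The p-values therefore rest on the spread between these samples, which the test estimated with the help of other genes. They do not measure a known spread between embryos.

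BCL-2 family proteins decide whether the outer membrane of the mitochondrion stays closed. The effectors BAX and BAK open it and release cytochrome c, the pro-survival proteins BCL-2, BCL-XL and MCL-1 hold them back, and BH3-only proteins bind the pro-survival proteins or activate the effectors. MCL-1 is a short-lived protein on which blood stem cells are known to depend. The levels given here are of mRNA, and these data hold no measure of protein or of cell death.

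What the family shares is the BH3 motif, the short helix through which its members bind one another. The stretches that encode it are shown because members of all 3 roles hold it. For 9 members, 30 bases of coding sequence were read from the GRCm38 genome at the place where the GENCODE protein held a leucine, 3 residues of any kind, a glycine, alanine or serine, and an aspartate. Each of these proteins held this pattern 1 time. Capitals mark the codons of the leucine, of the small residue and of the aspartate.
Mcl1: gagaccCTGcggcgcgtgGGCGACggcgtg
Bcl2l1: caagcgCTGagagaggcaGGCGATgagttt
Bcl2: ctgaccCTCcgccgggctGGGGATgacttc
Bax: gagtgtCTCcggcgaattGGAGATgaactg
Bak1: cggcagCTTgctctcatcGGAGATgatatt
Bid: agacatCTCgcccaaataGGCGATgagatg
Bcl2l11: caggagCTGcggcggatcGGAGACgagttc
Bbc3: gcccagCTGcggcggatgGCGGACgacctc
Bad: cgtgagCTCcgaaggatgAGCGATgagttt
The small residue was a glycine in 7 of them, an alanine in Bbc3 and a serine in Bad. Each stretch lay within 1 exon, for example exon 1 of 3 in Mcl1, at chr3:95659430-95659459 on the plus strand, and exon 3 of 4 in Bcl2l11, at chr2:128147144-128147173 on the plus strand.

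The samples held 14703215 to 20933919 reads on genes. Ercc6l was listed at 1142 and 1232 normalized read counts in the Pich-KO samples and at 772 and 661 in the Pich-WT samples, a rise with an adjusted p of 0.0089 (limma). Reads of a transcript with a small deletion are still counted, so the level of this gene does not check the labels. Ly6a, which encodes Sca-1, was higher in Pich-KO (log2 fold change 1.74, adjusted p 0.000167). Kit had a log2 fold change of 0.54 and did not pass the test (adjusted p 0.114). Pich-WT sample 2 had no read on the Y-linked gene Ddx3y, whereas the other 3 samples had 714 to 1065 normalized counts, and it had 699 on Xist against 4.55 to 14.2, so the 2 Pich-WT samples differed in the sex of their embryos.

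Of the 10 members, 3 were higher in Pich-KO (Bcl2, Bid and Bax), 2 were lower (Mcl1 and Bcl2l1) and 5 did not pass an adjusted p of 0.05 in limma. Across all genes tested, 7.58% were higher, 9.60% lower and 17.2% in either direction. Among the 7802 genes at least as abundant as the least abundant member, 25.0% were higher, 20.4% lower and 45.4% in either direction, so the 5 of 10 members called were near the share of genes of like abundance. With edgeR on the recovered reads, 3 members were higher and 3 lower, against 18.6% higher, 20.7% lower and 39.3% in either direction of 16608 genes. These were not limited to genes as abundant as the members, so the edgeR count is not read as an excess. The median log2 fold change was 0.02 over the members, 0.02 over all genes tested and 0.09 over those abundant genes. The 2 groups did not overlap in 8 members, against 56.1% of all genes tested and 81.1% of the abundant genes. An exact two-sided permutation test of 2 samples against 2 cannot give a p under 0.333, so the calls rest on the spread that limma estimated across genes. With 1 prior variance shared by all genes, none of the 10 passed in limma, with 4 at an unadjusted p under 0.05, and the lowest adjusted p was 0.0852, for Mcl1. Without Pich-KO sample 1, Mcl1 alone passed (adjusted p 0.039). No member passed without any 1 of the other 3 samples, where 5 members without Pich-KO sample 2, 4 without Pich-WT sample 1 and 5 without Pich-WT sample 2 had an unadjusted p under 0.05, against 6 in all samples.

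**Figure D1:**
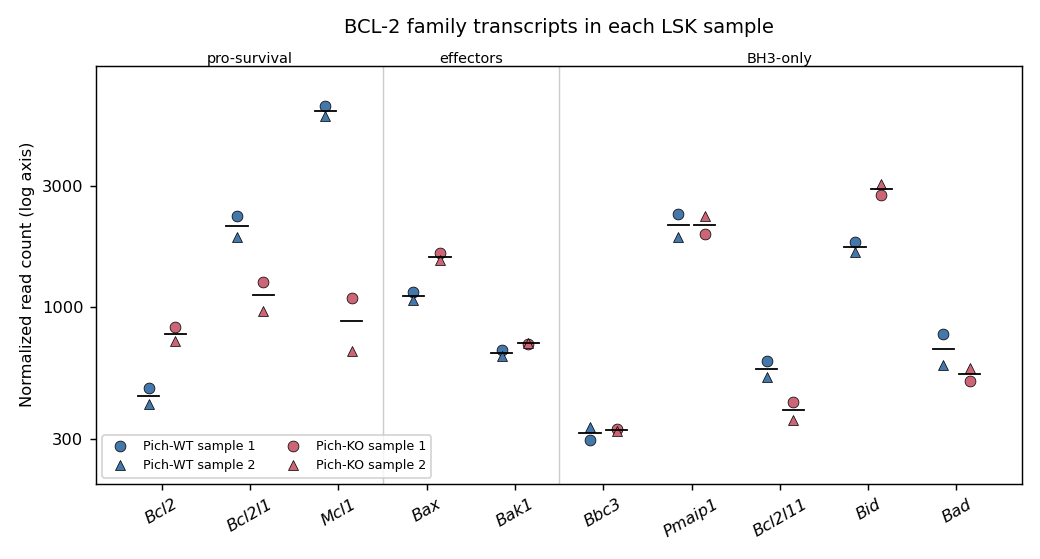
Normalized read count (logarithmic axis) of each of the 10 members in each of the 2 Pich-KO and 2 Pich-WT samples, 1 point per sample, grouped by role. The Mcl1 points of Pich-KO lie at 1087 and 673, far below those of Pich-WT at 6225 and 5717, while the points of Bbc3 and Pmaip1 overlap.

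Among the pro-survival genes the members moved in opposite directions. Mcl1, on chromosome 3 (chr3:95658788-95663176, plus strand), fell most of the 10 members. It was listed at 1087 and 673 normalized counts in Pich-KO samples 1 and 2, and at 6225 and 5717 in Pich-WT samples 1 and 2. Both Pich-KO samples were far below both Pich-WT samples, with means of 880 ± 293 and 5971 ± 360 (SD, n = 2 each), which is 6.78-fold higher in Pich-WT. The log2 fold change was -2.80 (SE 0.20, 95% interval -3.27 to -2.33, adjusted p 0.000113), at percentile 1.84 of the log2 fold changes of all genes tested. It stayed between -2.86 and -2.73 over the 10 alternatives in all samples and between -3.15 and -2.45 when 1 sample was left out.

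Bcl2l1, which encodes BCL-XL, the survival protein of late erythroid cells and platelets, lies on chromosome 2 (chr2:152780668-152831728, minus strand). It was at 1261 and 968 normalized counts in Pich-KO, against 2293 and 1899 in Pich-WT. The groups did not overlap, and the level was 1.88-fold higher in Pich-WT (log2 fold change -0.92, SE 0.16, 95% interval -1.29 to -0.54, adjusted p 0.00604). Bcl2, the founding member of the family (chr1:106538178-106714274, minus strand), went the other way, with 833 and 732 normalized counts in the Pich-KO samples against 478 and 412. It was 1.76-fold higher in Pich-KO (log2 fold change 0.81, SE 0.16, 95% interval 0.45 to 1.18, adjusted p 0.00943).

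Genes used as markers of cell types also differed between the groups. The names of the lists infer no cell type. These data do not show whether such transcripts came from progenitors within the LSK sort or from other cells. In bulk RNA, fewer cells of a type and less RNA per cell cannot be told apart. All 14 macrophage markers were lower in Pich-KO (median log2 fold change -4.84), with summed levels of 12806.5 to 13709 normalized counts in Pich-KO against 75685 to 75954.5 in Pich-WT, and none was at 0 reads except Vsig4 in Pich-KO sample 2. All 6 endothelial markers were lower, with sums of 1405 to 2209 against 18004 to 26713. Of 12 erythroid markers 9 were lower, with sums of 36805 to 39862 against 143728 to 203045, and of 8 hepatocyte markers 5 were lower, with sums of 2522 to 2983 against 4235 to 4755. Of 9 granulocyte markers Prtn3, Ctsg and Mpo were higher and 6 did not pass, with a median log2 fold change of 0.31. The sums over all 9 were 64513 to 121501 against 16683 to 19389. Of 10 lymphoid markers 1 was higher and 1 lower, with sums of 2149 to 2649 against 2496 to 2670. Of 12 genes of stem cells and of the sort, Ly6a was higher, and Procr, Hlf, Mecom, Slamf1 and Gata2 were lower. No marker of these lists other than Vsig4 was at 0 reads in any sample. The lineage antibodies named in the methods were against T cell, B cell, granulocyte and erythroid antigens. A list of 21 immediate early and heat shock genes was written after the table had been opened. Of these 5 were higher and 12 lower, with sums of 153249 to 165593 in Pich-KO against 175013 to 179005. The part of any of these in the levels of the family was not tested.

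The promoters of the member that fell most and of the pro-survival member that rose are shown because these neighbours in function differed in direction. They are the 250 bases before the RefSeq start of Mcl1 (GRCm38.p6, chr3:95658471-95658720, plus strand) and of Bcl2 (chr1:106714291-106714540, minus strand). Capitals mark GC boxes, the letters GGGCGG on either strand, a known site of SP1.
Mcl1 promoter: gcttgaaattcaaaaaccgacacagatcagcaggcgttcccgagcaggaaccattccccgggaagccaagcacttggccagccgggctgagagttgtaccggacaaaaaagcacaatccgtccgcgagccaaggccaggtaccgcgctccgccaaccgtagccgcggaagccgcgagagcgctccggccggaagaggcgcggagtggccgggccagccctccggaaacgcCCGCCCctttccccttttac
Bcl2 promoter: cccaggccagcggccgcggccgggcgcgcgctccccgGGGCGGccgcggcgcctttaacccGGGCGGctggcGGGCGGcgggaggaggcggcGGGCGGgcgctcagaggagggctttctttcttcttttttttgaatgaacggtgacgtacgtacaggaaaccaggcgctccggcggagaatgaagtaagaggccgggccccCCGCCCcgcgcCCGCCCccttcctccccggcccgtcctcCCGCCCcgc
The Mcl1 window held 1 GC box, 20 bases from the start, and was 64.4% G and C. The Bcl2 window held 7 and was 74.8% G and C. The 9 members with a window had 15 windows in all. GC boxes were in 10 of these 15, from 7 members, against 32.74% of 32851 promoter windows of the same length. An E-box, CACGTG, was in 2 of the 15, from Bax and Bbc3 (6.021% of all windows), the NF-kB motif in 2, from Bbc3 and Bcl2l1 (7.251%), and the p53 half-site in 1, from Bax (7.126%). The letters TTCNNNGAA of STAT factors (7.02% of all windows), TGACGTCA of CREB and ATF factors (1.546%) and the ISRE motif of interferon-responsive genes (2.977%) were in none of the members' 15 windows. All motifs were searched on both strands. A match is a description of letters and not of binding.

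Of the effectors, Bax rose and Bak1 did not pass the test. Bax (chr7:45461697-45466898, minus strand) encodes the effector that waits in the cytosol. It was at 1631 and 1533 normalized counts in Pich-KO, against 1144 and 1068 in Pich-WT. Both Pich-KO values were above both Pich-WT values, 1.43-fold higher on average (log2 fold change 0.52, SE 0.12, 95% interval 0.24 to 0.79, adjusted p 0.0198). Bak1 (chr17:27019810-27029009, minus strand) encodes the effector that sits in the mitochondrial membrane, and was at 717 and 720 against 679 and 639. These values did not overlap, but the difference was small (log2 fold change 0.12, 95% interval -0.19 to 0.44, adjusted p 0.621).

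Of the 5 BH3-only genes, Bid rose and the other 4 did not pass the test. Bid (chr6:120891930-120916853, minus strand), whose product is cut by caspase-8 and links death receptors to mitochondria, was at 2785 and 3074 normalized counts in Pich-KO, against 1814 and 1649 in Pich-WT. It was 1.69-fold higher in Pich-KO (log2 fold change 0.76, SE 0.11, 95% interval 0.50 to 1.01, adjusted p 0.00258). Exons of Bcl2l13 on the opposite strand cover 628 bases, 17.7% of the exon bases of Bid, and the library kit does not keep the strand, so reads there cannot be told apart. Bcl2l13 itself had a log2 fold change of 0.32 (adjusted p 0.0856). Exons of other genes also overlap those of Bcl2 (6.09% of its exon bases), Bax (12.2%, same strand) and Bak1 (18.2% and 7.35%). The gene across from Bcl2 was at 1.00 to 6.54 normalized counts. The gene with the larger overlap of Bak1 was at 25.0 to 37.5, and that overlapping Bax was not listed.

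Bcl2l11, which encodes BIM, a BH3-only protein that binds all the pro-survival proteins, was at 422 and 358 normalized counts in Pich-KO, against 611 and 530 in Pich-WT. Both Pich-KO values were lower, with a log2 fold change of -0.55 (SE 0.17, 95% interval -0.94 to -0.16), but the adjusted p of 0.0649 in limma missed the threshold. It was 0.0355 with edgeR and 0.037 with DESeq2 on the recovered reads, and Bcl2l11 passed in 6 of 10 alternatives.

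The remaining BH3-only genes showed no difference past the test. Bbc3, which encodes PUMA, a target of p53, was at 329 and 323 against 299 and 336 normalized counts, with a log2 fold change of 0.04 (95% interval -0.36 to 0.44, adjusted p 0.912). Pmaip1, which encodes NOXA, another target of p53 and a partner of MCL-1, was at 1943 and 2286 against 2324 and 1893 (log2 fold change 0.0067, 95% interval -0.31 to 0.33, adjusted p 0.984). The groups overlapped in both genes, and the sign of either log2 fold change turned when counts were scaled by total reads (to -0.02 and -0.05). Bad, a BH3-only protein held in check by phosphorylation, was at 508 and 576 against 781 and 590. The Pich-KO values were below the Pich-WT values, and the difference did not pass (log2 fold change -0.33, 95% interval -0.74 to 0.09, adjusted p 0.284). Exons of Gpr137 on the opposite strand cover 20.5% of the 2558 exon bases of Bad in GENCODE M21. The deposited length of Bad was 2007 bases, so the share in the counted exons can differ. Gpr137 was lower in Pich-KO (log2 fold change -0.70, adjusted p 0.0347).

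**Figure D2:**
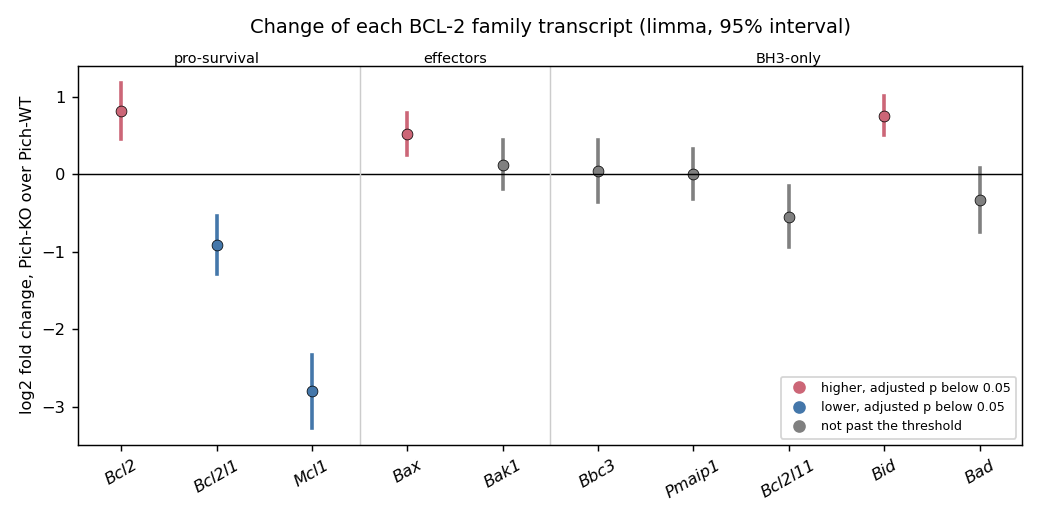
Log2 fold change of each member, Pich-KO over Pich-WT, with its 95% interval from limma, grouped by role. The interval of Mcl1 runs from -3.27 to -2.33 and lies apart from those of the other 9 members, and the intervals of Bak1, Bbc3, Pmaip1 and Bad include 0.

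Levels per length, in RPKM (reads per length of exon and per total of reads on genes), put the members of 1 sample on a common scale. In Pich-WT, Mcl1 stood first at 109 ± 2.75 RPKM (SD, n = 2), above Pmaip1 at 49.8 ± 5.47 and Bax at 43.95 ± 0.60, whose samples did not overlap. Bid at 30.5 ± 0.99 and Bcl2l1 at 28.6 ± 2.80 came next and were within their spread, followed by Bad at 21.3 ± 3.46, Bak1 at 17.1 ± 0.14, Bbc3 at 9.38 ± 1.11, Bcl2l11 at 4.45 ± 0.29 and Bcl2 at 3.04 ± 0.21. In Pich-KO, Bax stood first at 60.3 ± 2.98, above Bid at 49.6 ± 3.17 and Pmaip1 at 48.0 ± 5.23, which lay within their spread. Bak1 at 17.9 ± 0.05, Bad at 16.2 ± 1.34, Mcl1 at 15.5 ± 5.24 and Bcl2l1 at 14.6 ± 2.80 followed, and all of them lay within the spread of Mcl1, which was at 19.2 RPKM in sample 1 and 11.8 in sample 2. Bbc3 at 9.23 ± 0.19, Bcl2 at 5.14 ± 0.50 and Bcl2l11 at 2.92 ± 0.36 were lowest. The order depends on the length used. With the coding length in place of the exon length, Pmaip1 stood first in both groups, Mcl1 was in place 2 in Pich-WT, and Bax was in place 3 in Pich-KO, behind Bid. The reads were still those of all exons, so this scale raises genes with much non-coding exon sequence. Bcl2, with 9157 exon and 729 coding bases, went from 5.14 to 64.5 in Pich-KO.

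The make-up of the family by role differed between the groups, largely through Mcl1, with a mean of 15.5 RPKM in Pich-KO against 109 in Pich-WT. Shares add up to the whole, so a smaller pro-survival share goes with larger shares of the other roles. Pro-survival genes gave 17.1% and 12.3% of the summed RPKM of the 10 members in Pich-KO samples 1 and 2, and 44.1% and 44.7% in Pich-WT samples 1 and 2. Effectors gave 33.3% and 32.0% against 18.7% and 19.8%, and BH3-only genes 49.5% and 55.7% against 37.1% and 35.6%. In RPKM, the pro-survival sum was 41.3 and 29.2 against 145 and 137, the effector sum 80.4 and 76.1 against 61.6 and 60.6, and the BH3-only sum 119 and 132 against 122 and 109. The pro-survival sums and the effector sums, of Bax and Bak1, did not overlap between groups and the BH3-only sums did. Bok, a further effector, is outside the 10 members and was left out of these sums. It went the other way, at 2.969 and 1.996 RPKM in Pich-KO against 16.49 and 13.16 in Pich-WT. The lack of overlap in the effector sum is therefore stated for Bax and Bak1 only, and not for effectors with Bok. Other family genes outside the 10 members were left out as well. Among them Bmf, Bik, Bcl2a1a and Bcl2a1d were lower in Pich-KO and Bnip3 was higher. Within the pro-survival genes, Mcl1 gave 46.5% and 40.3% in Pich-KO, against 76.7% and 78.5% in Pich-WT. The ratio of Mcl1 to Bcl2l11, which encodes its partner BIM, was 6.05 and 4.41 against 23.9 and 25.3, and that of Mcl1 to Pmaip1 was 0.433 and 0.228 against 2.07 and 2.34. The ratio of Bax to Bcl2 was 11.4 and 12.2 against 13.9 and 15.1. With coding lengths, the pro-survival share was 19.1% and 14.2% against 38.8% and 39.4%. The ratio of Mcl1 to Bcl2l11 was then 1.68 and 1.22 against 6.64 and 7.03, and that of Mcl1 to Pmaip1 was 0.174 and 0.0916 against 0.834 and 0.940, under 1 in all 4 samples. That of Bax to Bcl2 was 2.32 and 2.49 against 2.84 and 3.08. These shares are descriptions, with no test, and a share of mRNA is not a share of protein.

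**Figure D3:**
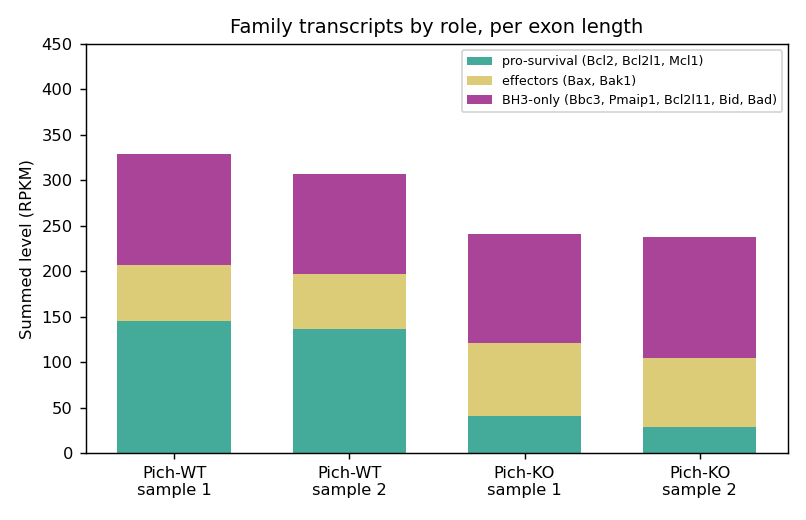
Summed level per length (RPKM) of the 3 pro-survival, 2 effector and 5 BH3-only members in each sample. The pro-survival part is 41.3 and 29.2 RPKM in Pich-KO, against 145 and 137 in Pich-WT, while the BH3-only part lies between 109 and 132 in all 4 samples.

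Beyond the 10 members, 16 other BCL-2 family genes had been listed, of which 15 were in the table and 14 were tested. Of these 1 was higher and 6 lower, with a median log2 fold change of -0.70. The shares to set beside this and the lists below are 7.58% higher and 9.60% lower of all genes tested. Of the 7802 genes at least as abundant as the least abundant member, 25.0% were higher and 20.4% lower. No list was tested as a set. Bcl2l10 was under the filter, and Bcl2a1c was not analysed here. The gene that rose was Bnip3, which acts in the removal of mitochondria and was at 1382 and 1196 normalized counts in Pich-KO against 506 and 403 (log2 fold change 1.51, adjusted p 0.000643). Its relative Bnip3l, known for the clearance of mitochondria from red cells, fell (log2 fold change -0.98, adjusted p 0.000938). Bok, a further effector, fell from 496 and 377 to 90.5 and 61.4 (log2 fold change -2.52, adjusted p 0.000539). The BH3-only genes Bik (log2 fold change -2.69, adjusted p 0.00465) and Bmf (-1.86, adjusted p 0.00256) fell too, Bik from low counts of 71.9 and 47.0. Bcl2a1a and Bcl2a1d, pro-survival genes of leukocytes, had log2 fold changes of -2.26 (adjusted p 0.0427) and -2.85 (adjusted p 0.0115). Bcl2a1a, Bcl2a1b and Bcl2a1d are near-identical copies and can share reads, so which of them fell is uncertain. Bcl2l2, Bcl2a1b, Bcl2l12, Bcl2l13, Bcl2l14, Bcl2l15 and Hrk did not pass, with log2 fold changes from -1.81 for Bcl2a1b to 0.32 for Bcl2l13.

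Downstream of the mitochondrion, 15 genes of the apoptosome and caspases were tested, with 3 higher, 2 lower and a median log2 fold change of 0.14. The share called in either direction was 17.2% of all genes tested and 45.4% of the abundant genes. Apaf1, the scaffold of the apoptosome, was at 861 and 784 normalized counts in Pich-KO, against 219 and 208 in Pich-WT (log2 fold change 1.94, adjusted p 0.000187). Cycs, which encodes cytochrome c, rose as well, from 2927 and 2349 to 5200 and 6708 (log2 fold change 1.17, adjusted p 0.00136), as did Htra2, a mitochondrial protease (0.68, adjusted p 0.0141). Casp9, the caspase that the apoptosome activates, was lower, at 445 and 494 against 756 and 854 (log2 fold change -0.78, adjusted p 0.00961), and so was Casp6 (-0.65, adjusted p 0.021). Of 9 inhibitor of apoptosis genes, Birc6 rose (0.93, adjusted p 0.00278), Xiap, an inhibitor of caspases, fell (-0.66, adjusted p 0.0196), and the median was 0.00.

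Genes that act on BCL-2 proteins after translation, or at the mitochondrial membrane, were a list of 14, with 6 higher, 1 lower and a median log2 fold change of 0.34. Of the abundant genes, 25.0% were higher and 20.4% lower, and 45.4% were called in either direction. Huwe1, a ubiquitin ligase of MCL-1, rose (1.18, adjusted p 0.000962), and Fbxw7, the receptor of another, fell (-1.22, adjusted p 0.0197). Opa1, which shapes the inner membrane (0.81, adjusted p 0.0057), and Mtch2, a receptor for truncated BID (0.60, adjusted p 0.00713), rose, and Dnm1l, Vdac1 and Vdac2 rose by less.

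Of 16 genes of the p53 pathway, 8 were higher and 2 lower, with a median log2 fold change of 0.76. The shares over all genes tested were 7.58% higher and 9.60% lower, and over the abundant genes 25.0% and 20.4%. The list was not tested as a set. Trp53 itself was at 4838 and 4470 normalized counts against 4600 and 4460 (log2 fold change 0.04, adjusted p 0.837), and Mdm2, its ubiquitin ligase and target, had a log2 fold change of 0.10 (adjusted p 0.661). Trp53inp1 (2.23, adjusted p 0.00437), Eda2r (1.93, adjusted p 0.0335) and Cdkn1a (1.69, adjusted p 0.0013) rose most of the list. Cdkn1a, the cell cycle inhibitor p21, was at 1819 and 1277 normalized counts in Pich-KO, against 552 and 404 in Pich-WT. Fas, a death receptor (-1.54, adjusted p 0.037), and Ei24 (-0.54, adjusted p 0.0338) fell, Fas to low counts of 31.6 and 15.9. Of Bax, Bbc3 and Pmaip1, which are known targets of p53, only Bax passed.

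Of 10 other transcription regulators of BH3-only genes, 1 was higher and 3 lower, with a median log2 fold change of 0.17. The share called in either direction was 17.2% of all genes tested and 45.4% of the abundant genes. Foxo1, a known activator of Bcl2l11, fell from 1091 and 822 normalized counts in Pich-WT to 177 and 80.7 in Pich-KO (log2 fold change -2.98, adjusted p 0.000858). E2f1 fell as well (-1.73, adjusted p 0.0105), with 673 and 283 in the Pich-KO samples, which differed by more than the Pich-WT samples at 1538 and 1374. Tsc22d3, a glucocorticoid-induced gene, fell by less (-0.36, adjusted p 0.0406), and Atf4, the regulator of the integrated stress response, rose (0.43, adjusted p 0.0113). Foxo3 and Ddit3 were not among the genes that passed.

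**Figure D4:**
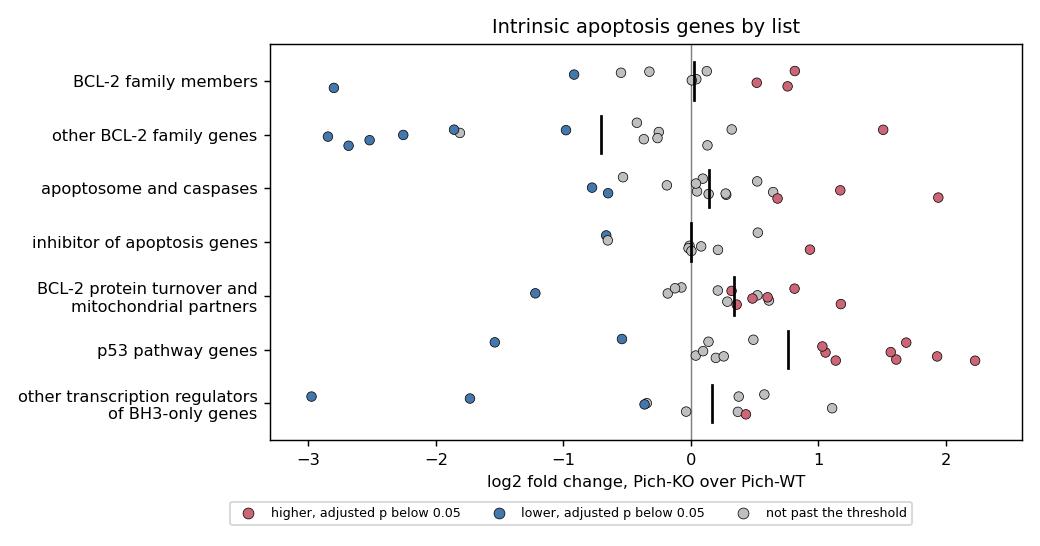
Log2 fold change, Pich-KO over Pich-WT, of the 88 tested genes of the 7 lists, 1 point per gene, with colour for the side of the adjusted p threshold of 0.05 in limma and a black bar for the median of each list. The p53 pathway has the highest median, 0.76, and the other BCL-2 family genes the lowest, -0.70.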

How the data were processed

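Per the labels, RNA of sorted fetal liver LSK cells was made into TruSeq libraries, which do not keep the strand. The deposited values were a signal made by the authors: read counts on genes divided by 1 size factor per sample. Whole reads were recovered for 100% of values (tolerance 0.001 reads), with 14703215 to 20933919 reads per sample. The submitters' processing notes name Bowtie 0.12.2 and the builds mm8 and mm9, whereas 97.83% of genes had the start and end of GRCm38 (GENCODE M21). The counter is not given in the sources used here. The deposited columns of log2 fold changes and p-values come from the authors' own comparison of the groups and were not used.

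Log2(value + 1) of genes with a mean of at least 1 was tested with limma 3.58.1 in R 4.3.3, with trended prior variances and Benjamini-Hochberg adjustment over 32428 genes. Fold changes on this scale are understated for low genes. RPKM was computed from the recovered reads. Alternatives included edgeR 4.0.16 and DESeq2 1.42.0 on these reads. The scripts were tested on simulated data. The members and lists were chosen with earlier results of these data known. Named were all members, every tested other family gene, per list up to 3 genes past the threshold with the largest rise and 3 with the largest fall, and a few pathway genes whatever their values. Foxo3, Ddit3, Gpr137, Dnm1l, Vdac1, Vdac2, Ddx3y and Xist, and genes of the marker lists other than Kit and Ly6a, were named outside this rule after their values were seen. No replicate pair agreed within counting noise. The values of 1 gene of the pathway lists are not reported here.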

Additional observations from a re-analysis of the deposited data

How the results depend on the processing

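With 1 prior variance for all genes, limma called 0 genes higher and 0 lower, with 7377 at an unadjusted p under 0.05, and 0 in each direction among the members (4 unadjusted) and in all 7 lists (31 of 88 unadjusted). In the other settings with all samples the members' calls were 3 higher and 2 or 3 lower. Among other BCL-2 family genes, 2 were higher and 3 lower with at least 10 reads in every sample, and 2 were higher with edgeR under TMM and upper-quartile scaling with its filter on low counts, under which 5 apoptosome genes were higher. In limma, no turnover gene was lower without a filter, and no p53 gene was lower with a pseudocount of 0.1 or without a filter. Of the other regulators 1 was lower in limma without a filter, and 2 were higher with at least 10 reads and with filtered edgeR under both scalings. The log2 fold change of Bbc3 turned to -0.018 with total-read scaling and -0.043 without Pich-WT sample 1, and was 0.127 without Pich-WT sample 2. That of Pmaip1 turned to -0.0025 with edgeR without a filter, -0.054 with total reads, -0.111 without Pich-KO sample 2 and -0.141 without Pich-WT sample 2, and was 0.155 without Pich-WT sample 1. Leaving out 1 sample left 1 residual degree of freedom, with the lone sample assumed to vary like the other group: 0 to 548 genes were higher and 0 to 1193 lower, 0 to 1 member was lower and 0 higher, 0 to 2 other BCL-2 genes, 0 to 1 turnover gene and 0 to 2 other regulators were lower, and 0 to 2 apoptosome and 0 to 3 p53 genes were higher, with 0 for the rest. Over 10544 genes, deviations of samples that share a number had a correlation of 0.0133, so no pairing by number was seen. With 2 samples per group this cannot exclude a batch that they shared. A replicate block gave 3122 higher and 3874 lower genes, and 3 and 3 of the members, with Bcl2l11 as the added call (adjusted p 0.0277). Depth limited Bcl2l10, Hrk and Bcl2l15, which had a few reads per sample. The causes were not tested.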
